A study of Homo sapiens with 11 samples.

Results

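The proteins of the mitochondrial ribosome are encoded by nuclear genes whose symbols begin with MRPL for the large subunit and MRPS for the small subunit. All rows of the expression table whose symbol consists of MRPL or MRPS, a number and at most 1 of the letters A to C were taken, which gave 76 genes (47 MRPL and 29 MRPS) of 31325 gene symbols. The rule reads the symbol alone. The genes were followed in the breast cancer line MDA-MB-231 and the ovarian cancer line SKOV3, both human, each transfected with miR-365a-3p or with a control miRNA. The groups hold 3 arrays each, except for the SKOV3 controls, which hold 2, so that there are 11 arrays in 4 groups. The sample labels place the cells at 48 h of treatment, whereas the description of the series gives 24 h. For the ovarian line the paper writes SKOV3.ip1 where the labels have SKOV3, and neither says whether replicates were separate cultures, so that the p-values below measure the spread between these arrays, which may be technical. Each group is 1 cell line with 1 transfected miRNA, and an untransfected group was not analysed here. Biotin-labelled cRNA was hybridized to Illumina BeadChips in 1 colour, and each gene has 1 value per array on a log2 scale, called the log2 signal below.

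Mitochondrial ribosomes translate the few proteins encoded by mitochondrial DNA, which are core subunits of the respiratory chain and ATP synthase. Their protein subunits are made in the cytosol, imported and assembled on mitochondrial rRNA with the help of GTPases, RNA helicases and other assembly factors. Some of the subunits descend from ribosomal proteins of bacteria, and others exist only in mitochondria. MicroRNAs repress mRNAs mainly by pairing of their seed, bases 2 to 8 of the mature strand, with sites in the mRNA. The transfected miRNA is printed because all comparisons of treatment rest on it. Its mature sequence is credited to RefSeq (GRCh38.p14, chr16:14309340-14309361, plus strand), and capitals mark the seed.
hsa-miR-365a-3p: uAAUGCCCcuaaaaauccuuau

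The 4 promoters that follow belong to 3 genes that rose in both cell lines and to the gene with the largest fall in MDA-MB-231, and they show how the promoters differ in the motif that was frequent among them. They were chosen after values and motifs were seen. Each runs from 250 bases before to 50 bases after the start of the gene in RefSeq (GRCh38.p14), printed 5′ to 3′ on the strand of the gene, and capitals mark CCGGAAG or its reverse complement CTTCCGG. This motif is a core bound by ETS factors, to which GABPA belongs, a known activator of nuclear genes for mitochondrial proteins.
MRPL1 (chr4:77862580-77862879, plus strand): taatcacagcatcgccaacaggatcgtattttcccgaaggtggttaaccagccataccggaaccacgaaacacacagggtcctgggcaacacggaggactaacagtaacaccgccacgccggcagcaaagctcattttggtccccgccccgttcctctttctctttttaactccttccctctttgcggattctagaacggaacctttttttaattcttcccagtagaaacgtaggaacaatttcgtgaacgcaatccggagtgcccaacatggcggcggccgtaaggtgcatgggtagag
MRPS22 (chr3:139343744-139344043, plus strand): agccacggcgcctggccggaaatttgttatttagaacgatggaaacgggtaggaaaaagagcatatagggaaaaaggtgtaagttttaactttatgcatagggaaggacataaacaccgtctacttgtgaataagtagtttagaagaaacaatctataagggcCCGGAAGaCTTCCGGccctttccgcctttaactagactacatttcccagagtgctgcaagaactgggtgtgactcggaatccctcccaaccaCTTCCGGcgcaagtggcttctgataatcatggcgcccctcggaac
MRPS18C (chr4:83455808-83456107, plus strand): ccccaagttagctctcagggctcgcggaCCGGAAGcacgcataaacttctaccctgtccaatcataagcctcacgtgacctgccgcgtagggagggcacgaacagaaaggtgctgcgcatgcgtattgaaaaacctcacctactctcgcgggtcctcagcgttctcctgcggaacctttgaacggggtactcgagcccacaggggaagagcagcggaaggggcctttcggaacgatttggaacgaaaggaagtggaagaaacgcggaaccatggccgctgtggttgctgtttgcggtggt
MRPS27 (chr5:72320191-72320490, minus strand): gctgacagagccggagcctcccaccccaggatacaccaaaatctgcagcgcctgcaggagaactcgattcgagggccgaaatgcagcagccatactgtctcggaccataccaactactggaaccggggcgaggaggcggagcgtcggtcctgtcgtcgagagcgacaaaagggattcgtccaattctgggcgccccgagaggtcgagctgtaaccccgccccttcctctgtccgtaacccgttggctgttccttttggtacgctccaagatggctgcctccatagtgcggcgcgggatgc

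A promoter was matched by symbol for 68 of the 76 genes. CCGGAAG was found on either strand in 28 of 68, or 41.2%, compared with 10.7% of 27305 promoters of the same length and 23.0% of 4053 promoters of genes with a mean log2 signal above 8. The binding motif of NRF1, another known activator of such genes, was searched as a pair of GCGC separated by any 2 bases and was found in 8 of 68, or 11.8%, compared with 8.78% of all promoters and 17.6% of those of genes with a mean above 8. A promoter can hold both motifs, whose letters may overlap, and a match is a string of letters and not a binding site. The promoter of MRPS22 held the ETS core at 3 places, that of MRPS18C at 1, and those of MRPL1 and MRPS27 at 0. Median log2 fold changes of members with the ETS core were 0.83 (MDA-MB-231) and 0.53 (SKOV3), and the 40 members without it had 0.71 and 0.59, so that the order of the medians differed between the lines. These values are given as a description with no test.

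The arrays were checked before the comparisons. ERBB2 and its neighbour STARD3, which are amplified in SKOV3 cells, had control means of 10.86 and 9.77 in SKOV3 and of 7.61 and 7.71 in MDA-MB-231 cells, where the lowest signals of the arrays lie near 7.3. VIM, the intermediate filament of mesenchymal cells, was high in both controls, with 13.79 in MDA-MB-231 and 13.70 in SKOV3. CAV1 was high in both as well, with 12.07 in MDA-MB-231 and 12.36 in SKOV3. KRT7 and KRT19, keratins of epithelial cells, were measured in both lines, with 8.22 and 11.92 in SKOV3 controls and 7.95 and 10.70 in MDA-MB-231 controls. KRT7 was not called between the controls (limma, adjusted p = 0.245), so it did not tell the lines apart. ZEB1, a repressor of epithelial genes often present in MDA-MB-231 cells, lay near the floor at 7.66, and the receptors ESR1 and PGR lay at the floor in that line. No pair of arrays held identical values. The deposited columns did not share a distribution. Their 75th percentile was 7.91 ± 0.04 (SD, n = 3) in MDA-MB-231 controls and 7.62 ± 0.05 (n = 3) with miR-365a-3p, and 8.01 ± 0.04 (n = 2) and 7.74 ± 0.06 (n = 3) in SKOV3 cells, so that treated arrays had a lower upper quartile in both lines. Their 99th percentile was higher in treated arrays, 12.56 ± 0.07 compared with 12.30 ± 0.02 in MDA-MB-231 cells. This shift of the whole array moved with the treatment, and its part in the results below was not tested. The values were quantile normalized across the arrays, and the counts on the deposited values are given below, with the values of named genes whose call after miR-365a-3p ended, or whose called change moved by over 1.5 times, on them.

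Most mitochondrial ribosomal protein mRNAs were higher after miR-365a-3p in both cell lines. The median log2 signal of the 76 genes was 9.28 ± 0.16 (SD, n = 3) in MDA-MB-231 controls and 9.90 ± 0.10 (n = 3) with miR-365a-3p. The SKOV3 median was 9.11 ± 0.03 (n = 2) in controls and 9.70 ± 0.09 (n = 3) with miR-365a-3p. Every treated array lay above every control array of its line. On the deposited values the medians were 9.37 ± 0.19 and 9.79 ± 0.13 in MDA-MB-231 and 9.27 ± 0.08 and 9.72 ± 0.12 in SKOV3 cells, again without overlap.

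**Figure D1:**
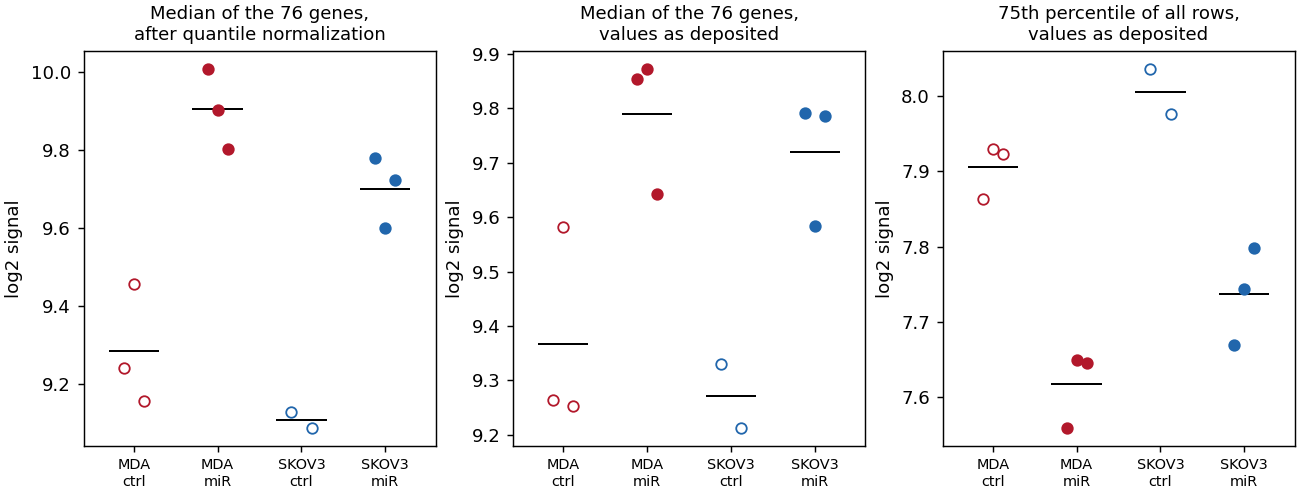
Median log2 signal of the 76 mitochondrial ribosomal protein genes on each array after quantile normalization (left) and as deposited (middle), and the 75th percentile of all rows as deposited (right). Points are arrays, open for control miRNA (ctrl) and filled for miR-365a-3p (miR), lines are group means, and the vertical axes do not start at 0. The treated arrays lie higher in both plots of the 76 genes and lower in the plot of the 75th percentile.

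In MDA-MB-231 cells 60 of the 76 genes rose at an adjusted p under 0.05 and 3 fell, whereas 14.4% of all 31325 rows rose and 11.7% fell. Most rows of the table lie near the floor, so the genes are better set beside the 6853 rows with a mean above 8, to which 73 of the 76 belong, and of which 39.0% rose and 26.2% fell. The median log2 fold change of the 76 genes was 0.74, with a range from −0.76 to 1.45, compared with 0.01 for all rows and 0.17 for the rows with a mean above 8. A positive difference was found for 68 of 76, compared with 3945 of the 6853 rows with a mean above 8. Each array reads RNA of many cells, so that fewer cells with an mRNA and less of it per cell cannot be told apart. All treated arrays lay above all controls for 66 genes, compared with 21.0% of all rows. For this count, and those of the same kind below, the share of the rows with a mean above 8 is not given here. The shares of all rows include the many near the floor.

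In SKOV3 cells 37 of the 76 genes rose and 1 fell, compared with 7.25% and 7.11% of all rows and with 23.4% and 15.3% of the rows with a mean above 8. The median log2 fold change was 0.58, with a range from −0.58 to 1.39, compared with 0.15 for the rows with a mean above 8. A positive difference was found for 69 of 76, compared with 4193 of the 6853 rows with a mean above 8. All treated arrays lay above all controls for 59 genes, compared with 23.7% of all rows, most of which lie near the floor. The number of rises rested on the pair of SKOV3 control arrays, and was 21 when control replicate 1 was left out and 16 when replicate 2 was.

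Of the 76 genes, 36 rose in both lines and 1, MRPS2, fell in both, compared with 5.76% and 5.39% of all rows and with 21.0% and 13.4% of the rows with a mean above 8. Treated arrays lay above controls in both lines for 57 genes, compared with 13.3% of all rows, most of which lie near the floor. Without SKOV3 control replicate 1 the number that rose in both lines was 21, and without replicate 2 it was 16. The scale on which arrays are compared changed the counts. On the deposited values 46 genes rose and 4 fell in MDA-MB-231 and 28 rose and 2 fell in SKOV3 cells, with medians of 0.59 and 0.46. On that scale rises made up 28.8% of all calls in the table in MDA-MB-231 and 21.4% in SKOV3 cells, compared with 55.2% and 50.5% after quantile normalization. With each array centred on its median, 50 genes rose and 4 fell in MDA-MB-231 and 31 rose and 2 fell in SKOV3 cells, and rises made up 40.9% and 32.3% of all calls.

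**Figure D2:**
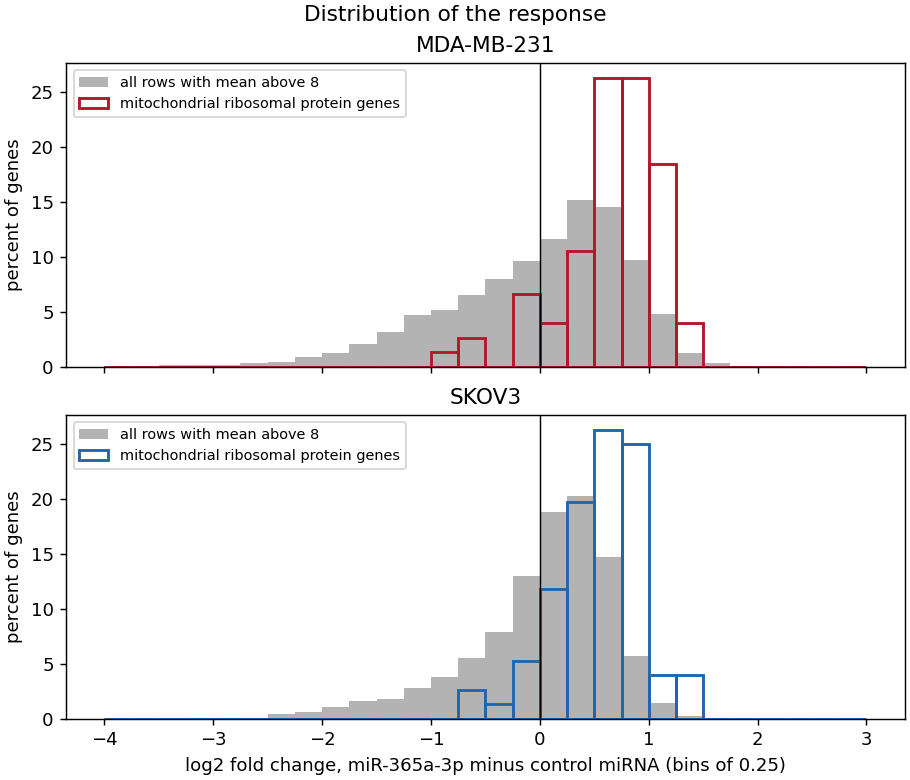
Distribution of log2 fold changes (miR-365a-3p minus control miRNA, bins of 0.25) in MDA-MB-231 (top) and SKOV3 cells (bottom), as the percent of the 76 mitochondrial ribosomal protein genes (outlines) and of the 6853 rows with a mean log2 signal above 8 (grey). The outlines peak to the right of the grey bars, with medians of 0.74 and 0.58 compared with 0.17 and 0.15.

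**Figure D3:**
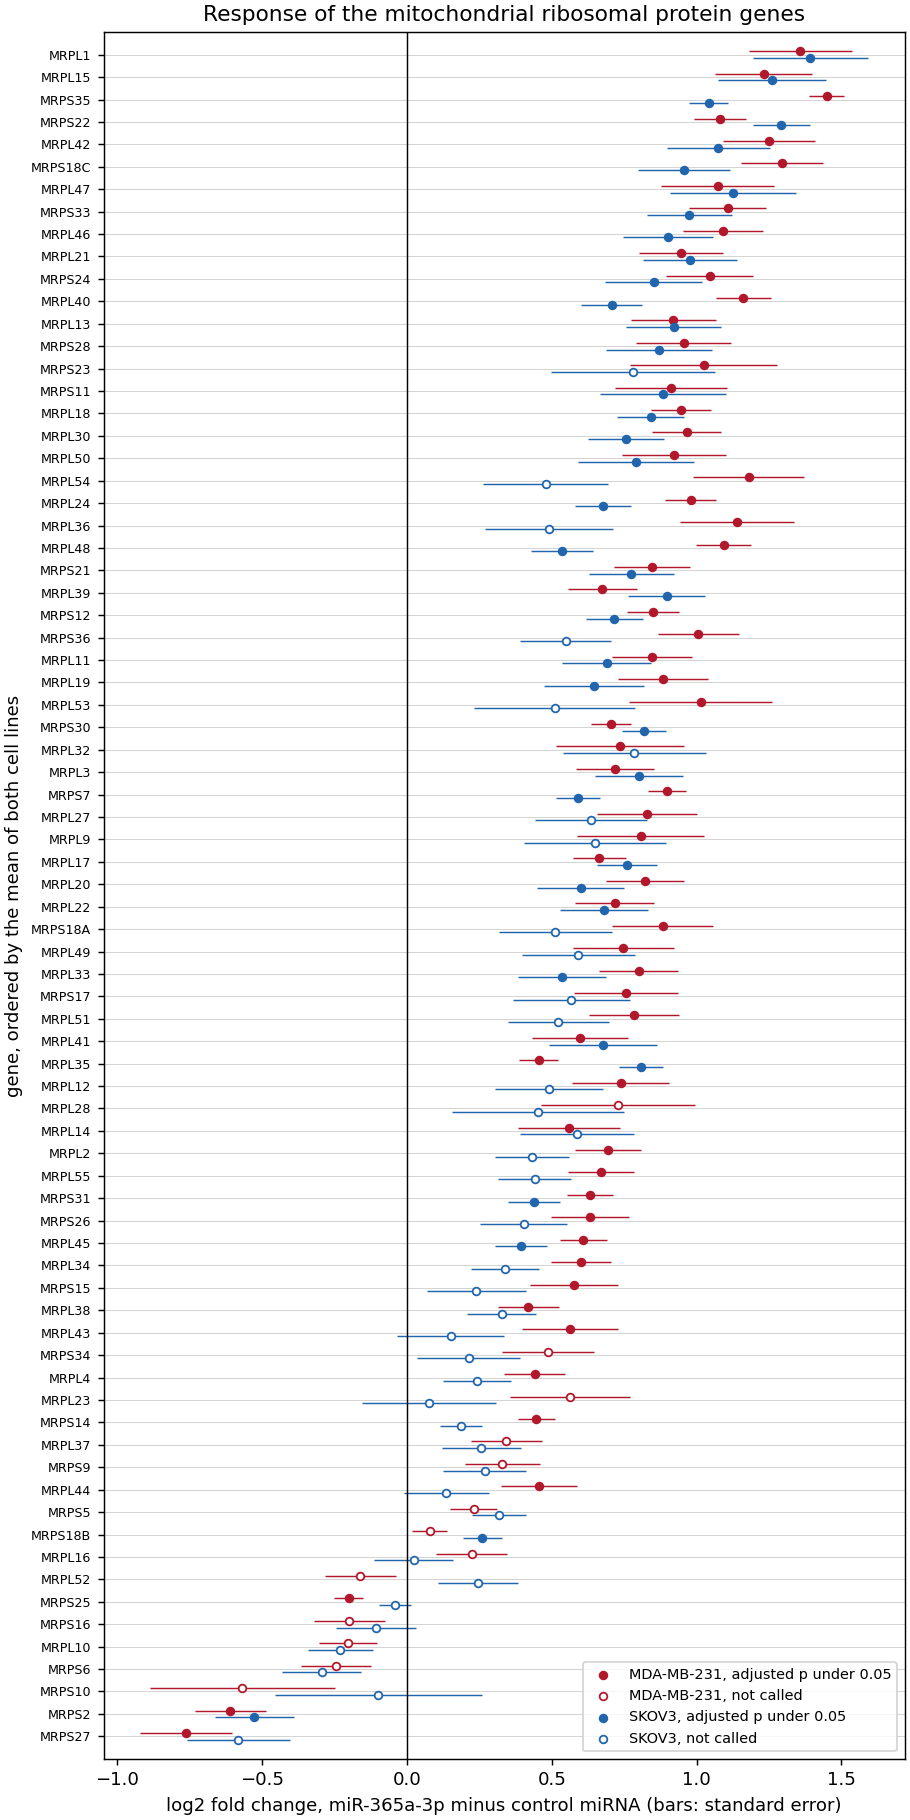
Log2 fold change of each of the 76 genes in MDA-MB-231 (red) and SKOV3 cells (blue), ordered by the mean of both lines, with standard errors as bars, filled points for an adjusted p under 0.05 and open points for genes not called. Filled points lie to the right of 0 for 60 genes in MDA-MB-231 and 37 in SKOV3 cells, and to the left for 3 and 1.

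Among the genes named for the large subunit, 41 of 47 rose and 0 fell in MDA-MB-231 cells, with a median of 0.75 (limma, 44 of 47 with an unadjusted p under 0.05). In SKOV3 cells 24 of 47 rose and 0 fell, with a median of 0.60 (limma, 35 of 47 with an unadjusted p under 0.05). Of the 6853 rows with a mean above 8, 5196 had such an unadjusted p in MDA-MB-231 and 4069 in SKOV3 cells. MRPL1 forms the stalk that guides the tRNA leaving the ribosome. Its log2 signal was 10.02, 10.22 and 10.01 on the MDA-MB-231 control arrays and 11.60, 11.48 and 11.24 with miR-365a-3p, and 9.429 and 8.999 on the SKOV3 control arrays and 10.99, 10.45 and 10.38 with miR-365a-3p. All treated arrays lay above all controls of their line by more than the range within either group. The log2 fold change was 1.36 ± 0.18 (SE, adjusted p = 0.000692) in MDA-MB-231 cells, which is a 2.56-fold rise, and 1.39 ± 0.20 (adjusted p = 0.0022) in SKOV3 cells.

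MRPL15, a protein of the core of the large subunit, read 9.77, 10.19 and 9.71 on the MDA-MB-231 control arrays and 11.24, 11.19 and 10.92 with miR-365a-3p. On the SKOV3 arrays it read 10.33 and 10.05 in controls and 11.61, 11.57 and 11.17 with miR-365a-3p. The groups were apart in both lines, and MRPL15 rose by 1.23 ± 0.17 (adjusted p = 0.000804) and 1.26 ± 0.19 (adjusted p = 0.00256). MRPL42, which is found only in mitochondria, read 9.13, 9.31 and 9.09 in MDA-MB-231 controls and 10.67, 10.36 and 10.25 with miR-365a-3p. Its SKOV3 values were 8.65 and 8.67 in controls and 10.10, 9.60 and 9.51 with miR-365a-3p. Its rise was 1.25 ± 0.16 (adjusted p = 0.0006) and 1.07 ± 0.18 (adjusted p = 0.00454), with treated arrays above all controls in both lines.

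MRPL47 sits near the exit of the tunnel for the nascent protein. It read 9.32, 9.95 and 9.34 in MDA-MB-231 controls and 10.82, 10.66 and 10.34 with miR-365a-3p, where control replicate 2 lay closest to the treated arrays. In SKOV3 cells it read 8.80 and 8.92 in controls and 10.19, 9.74 and 10.04 with miR-365a-3p. The log2 fold changes were 1.07 ± 0.19 (adjusted p = 0.00353) and 1.13 ± 0.22 (adjusted p = 0.00926). The SKOV3 call was lost without control replicate 1 (1.08, adjusted p = 0.0779) or control replicate 2 (1.20, adjusted p = 0.0601).

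MRPL2 and MRPL3 are core proteins that reach toward the peptidyl transferase centre. MRPL3 rose by 0.72 ± 0.14 (adjusted p = 0.00436) in MDA-MB-231 and by 0.80 ± 0.15 (adjusted p = 0.00842) in SKOV3 cells, the latter not called without SKOV3 control replicate 2 (0.74, adjusted p = 0.0854) or with SKOV3 fitted alone (adjusted p = 0.0826). MRPL2 rose by 0.70 ± 0.11 (adjusted p = 0.00214) in MDA-MB-231, with 0.36 (adjusted p = 0.0436) on the deposited values, and in SKOV3 cells it differed by 0.43 ± 0.13 (adjusted p = 0.0563), which passed the threshold without SKOV3 miR-365a-3p replicate 2 (0.56, adjusted p = 0.00471). MRPL10 and MRPL12 together form the stalk that recruits translation factors. MRPL12 rose by 0.74 ± 0.17 (adjusted p = 0.0106) in MDA-MB-231, a call lost on the deposited values (0.58, adjusted p = 0.0525), and differed by 0.49 ± 0.19 (adjusted p = 0.135) in SKOV3 cells, where it passed the threshold without miR-365a-3p replicate 2 (0.70, adjusted p = 0.00383). MRPL10, the protein to which MRPL12 binds, went the other way but was called in neither line, with −0.20 ± 0.10 (adjusted p = 0.208) and −0.23 ± 0.11 (adjusted p = 0.268). It passed the threshold as a fall in MDA-MB-231 cells on the deposited values and after median centring. Over the alternative fits in that line its lowest log2 fold change was −0.56 and its lowest adjusted p was 0.0221 (limma).

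The central protuberance joins the large subunit to the small one and is assigned here to MRPL18, MRPL27, MRPL38, MRPL40, MRPL46 and MRPL48, a grouping made after values were seen. All 6 rose in MDA-MB-231 and 4 of 6 in SKOV3 cells, with medians of 1.02 and 0.67, and these counts depend on the assignment. Of all 76 genes 60 and 37 rose, and of the rows with a mean above 8 the shares were 39.0% and 23.4%. MRPL46 rose by 1.09 ± 0.14 (adjusted p = 0.000605) and 0.90 ± 0.16 (adjusted p = 0.00561), the SKOV3 call being lost without SKOV3 control replicate 2 (0.82, adjusted p = 0.0654). MRPL38 had the smallest change of the 6, with 0.42 ± 0.11 (adjusted p = 0.0176) in MDA-MB-231 and 0.33 ± 0.12 (adjusted p = 0.115) in SKOV3 cells. Its MDA-MB-231 call was lost when either of MDA-MB-231 miR-365a-3p replicates 1 and 2 or of control replicates 1 and 3 was left out, with adjusted p between 0.0552 and 0.063. It was also lost on the deposited values (0.21, adjusted p = 0.319) and after median centring (0.24, adjusted p = 0.202). MRPL44, which has the fold of an RNase III enzyme, rose in MDA-MB-231 cells by 0.46 ± 0.13 (adjusted p = 0.0317) and differed by 0.14 ± 0.15 (adjusted p = 0.72) in SKOV3 cells. Its call in MDA-MB-231 was lost in 7 of 11 fits without 1 array, with a log2 fold change between 0.31 and 0.49 in those fits, and with MDA-MB-231 fitted alone (adjusted p = 0.0743). On the deposited values the change was 0.11 (adjusted p = 0.658) and after median centring 0.15 (adjusted p = 0.47). MRPL41, also studied for a part in apoptosis, differed by 0.60 ± 0.17 (adjusted p = 0.028) and 0.68 ± 0.19 (adjusted p = 0.0441), and its call was lost in 3 of 11 such fits in MDA-MB-231 (0.42 to 0.56) and in 7 of 11 in SKOV3 cells (0.62 to 0.73). On the deposited values MRPL41 was called in neither line (0.37, adjusted p = 0.123, and 0.47, adjusted p = 0.102), nor after median centring (0.40, adjusted p = 0.0886, and 0.51, adjusted p = 0.0803). The MDA-MB-231 call was also lost with that line fitted alone (adjusted p = 0.0781) and the SKOV3 call after cyclic loess (adjusted p = 0.0888).

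Among the genes named for the small subunit, 19 of 29 rose and 3 fell in MDA-MB-231, and 13 rose and 1 fell in SKOV3 cells, with medians of 0.70 and 0.51. MRPS35, which is found only in mitochondria, had the largest rise of the 76 genes in MDA-MB-231 cells. It read 8.48, 8.53 and 8.47 in controls and 9.91, 10.07 and 9.85 with miR-365a-3p, and in SKOV3 cells 9.32 and 9.39 in controls and 10.37, 10.34 and 10.48 with miR-365a-3p. The arrays of a group lay close together and far from the other group in both lines, and the log2 fold changes were 1.45 ± 0.06 (adjusted p = 2.75e-06) and 1.04 ± 0.07 (adjusted p = 4.16e-05). MRPS22, whose loss is known to cause mitochondrial disease, read 10.63, 10.81 and 10.66 in MDA-MB-231 controls and 11.81, 11.78 and 11.76 with miR-365a-3p. Its values in SKOV3 were 9.83 and 9.86 in controls and 11.31, 11.18 and 10.92 with miR-365a-3p. The groups were apart in both lines, with log2 fold changes of 1.08 ± 0.09 (adjusted p = 6.69e-05) and 1.29 ± 0.10 (adjusted p = 9.76e-05).

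MRPS33, a small protein found only in mitochondria, read 8.33, 8.57 and 8.14 in MDA-MB-231 controls and 9.70, 9.40 and 9.26 with miR-365a-3p. In SKOV3 cells it read 8.58 and 8.49 in controls and 9.64, 9.43 and 9.46 with miR-365a-3p, again without overlap. It rose by 1.11 ± 0.13 (adjusted p = 0.00042) and 0.98 ± 0.15 (adjusted p = 0.00285). MRPS12 belongs to the decoding centre, where codon and anticodon are matched, and MRPS7 to the head of the small subunit. MRPS12 rose by 0.85 ± 0.09 (adjusted p = 0.000227) and 0.72 ± 0.10 (adjusted p = 0.00192). MRPS7 rose by 0.90 ± 0.07 (adjusted p = 3.99e-05) and 0.59 ± 0.08 (adjusted p = 0.0012).

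The 3 genes MRPS18A, MRPS18B and MRPS18C encode related proteins, of which MRPS18A sits in the large subunit and the other two in the small subunit. MRPS18C read 8.79, 8.74 and 8.54 in MDA-MB-231 controls and 10.32, 9.91 and 9.73 with miR-365a-3p, and in SKOV3 cells 8.83 and 8.97 in controls and 9.92, 9.71 and 9.93 with miR-365a-3p. It rose in both lines without overlap, by 1.30 ± 0.14 (adjusted p = 0.000281) and 0.96 ± 0.16 (adjusted p = 0.00463). MRPS18A rose by 0.88 ± 0.17 (adjusted p = 0.00549) in MDA-MB-231, a call lost on the deposited values (0.56, adjusted p = 0.0525), and differed by 0.51 ± 0.20 (adjusted p = 0.136) in SKOV3 cells, called there without miR-365a-3p replicate 2 (0.69, adjusted p = 0.0257). MRPS18B differed by 0.08 ± 0.06 (adjusted p = 0.461) in MDA-MB-231 cells, with the opposite sign on the deposited values (−0.12) and after median centring (−0.08). In SKOV3 cells it differed by 0.26 ± 0.07 (adjusted p = 0.035), a call lost in 5 of 11 fits without 1 array, with a log2 fold change of 0.24 to 0.27. This call was also lost on the deposited values (0.13, adjusted p = 0.513), after median centring (0.17, adjusted p = 0.312), after cyclic loess (0.22, adjusted p = 0.0712), and in limma's robust fit with a trend on intensity (adjusted p = 0.29). MRPS30, which sits in the large subunit despite its symbol, rose by 0.70 ± 0.07 (adjusted p = 0.000156) and 0.82 ± 0.08 (adjusted p = 0.000277).

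On the quantile normalized values of all arrays, the called falls among the MRPL and MRPS genes were few, and all had MRPS symbols. This split depends on the scale, since MRPL10 of the large subunit also passed as a fall in MDA-MB-231 cells on the deposited values and after median centring. MRPS27, a pentatricopeptide repeat protein that binds RNA, read 10.14, 9.81 and 10.05 in MDA-MB-231 controls and 8.83, 9.41 and 9.47 with miR-365a-3p, where treated replicate 1 was far below the others. The SKOV3 arrays read 9.89 and 9.99 in controls and 9.31, 9.36 and 9.40 with miR-365a-3p. The groups did not overlap in either line. The log2 fold change was −0.76 ± 0.16 (adjusted p = 0.0072) in MDA-MB-231, and −0.58 ± 0.18 (adjusted p = 0.0648) in SKOV3 cells, the latter past the threshold without MDA-MB-231 miR-365a-3p replicate 1 (−0.57, adjusted p = 0.00475). The MDA-MB-231 call was lost with same-numbered arrays of a line fitted as blocks (limma, adjusted p = 0.0536).

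MRPS2, a protein of the back of the small subunit that also exists in bacteria, read 8.77, 9.26 and 9.25 in MDA-MB-231 controls and 8.37, 8.56 and 8.53 with miR-365a-3p, and in SKOV3 cells 8.70 and 8.66 in controls and 8.23, 8.10 and 8.13 with miR-365a-3p. All treated arrays lay below all controls of their line, and control replicate 1 was the lowest of the MDA-MB-231 controls. The log2 fold change was −0.61 ± 0.12 (adjusted p = 0.00571) in MDA-MB-231 and −0.53 ± 0.14 (adjusted p = 0.0334) in SKOV3 cells. The SKOV3 call was lost in 7 of 11 fits without 1 array, among them those without SKOV3 control replicate 1 (−0.51, adjusted p = 0.18) or 2 (−0.54, adjusted p = 0.169). On the deposited values the changes of MRPS2 were −0.93 and −0.82, both past the threshold. MRPS25, found only in mitochondria, lay near the floor with 7.88, 7.99 and 7.95 in MDA-MB-231 controls and 7.76, 7.75 and 7.71 with miR-365a-3p. It fell by 0.20 ± 0.05 (adjusted p = 0.0163), which was lost without treated replicate 3 or control replicates 2 or 3 (log2 fold change −0.19, −0.17 and −0.19), and was −0.49 (adjusted p = 0.000343) on the deposited values. Its SKOV3 arrays overlapped, with −0.04 ± 0.06 (adjusted p = 0.796), and on the deposited values it was called there with −0.25 (adjusted p = 0.0243).

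**Figure D4:**
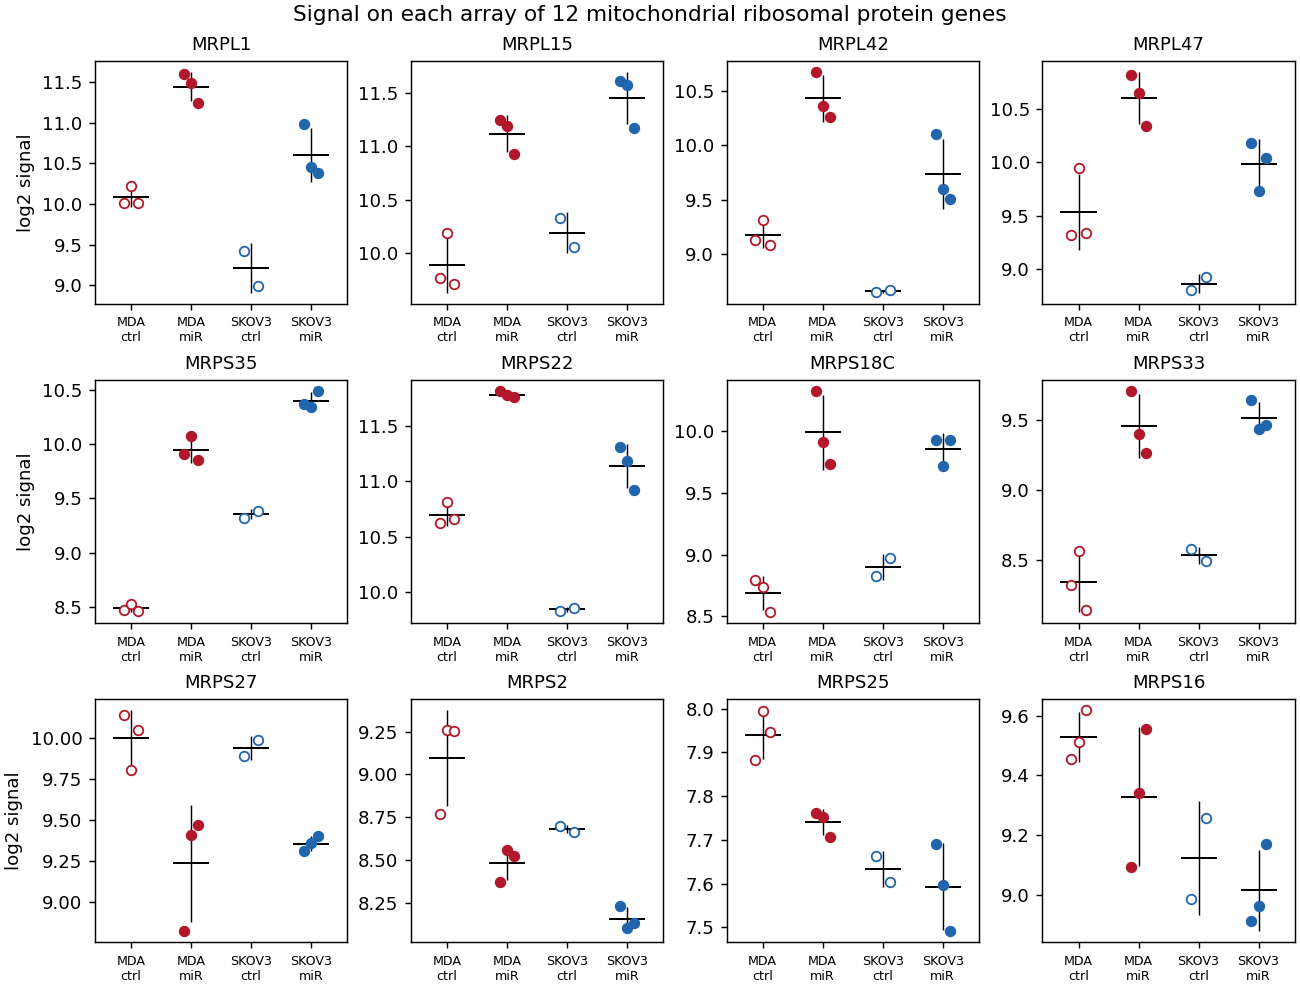
Log2 signal of 12 genes on each of the 11 arrays, with open points for control miRNA (ctrl), filled points for miR-365a-3p (miR), horizontal lines for group means and vertical lines for the SD. The vertical axis differs between genes and does not start at 0. The first 8 genes are higher with miR-365a-3p in both lines without overlap, MRPS27 and MRPS2 are lower in both, MRPS25 is lower without overlap in MDA-MB-231 and overlaps in SKOV3, and the groups of MRPS16 overlap.

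Other genes of the small subunit were not called. MRPS16, whose mutation was found in fatal lactic acidosis of newborns, differed by −0.20 ± 0.12 (adjusted p = 0.332) and −0.11 ± 0.14 (adjusted p = 0.782). MRPS5, at the entry of the mRNA channel, differed by 0.23 ± 0.08 (adjusted p = 0.076) and 0.32 ± 0.09 (adjusted p = 0.0525), and MRPS34, mutated in Leigh syndrome, by 0.49 ± 0.16 (adjusted p = 0.0523) and 0.21 ± 0.18 (adjusted p = 0.594). MRPS5 in both lines and MRPS34 in MDA-MB-231 lay close to the threshold and passed it in some fits without 1 array. By origin, 25 of 29 large-subunit genes with a counterpart in bacteria rose in MDA-MB-231 and 16 of 18 of those found only in mitochondria, and in the small subunit these counts were 10 of 17 and 6 of 9. In SKOV3 cells the counts in the same order were 16 of 29, 9 of 18, 8 of 17 and 4 of 9. Among the rows with a mean above 8, 39.0% rose in MDA-MB-231 and 23.4% in SKOV3, and no class was tested against another. MRPL55, MRPS18A and MRPS36 were left out of these counts. MRPS36, now named KGD4 and known as a part of the 2-oxoglutarate dehydrogenase complex, rose by 1.01 ± 0.14 (adjusted p = 0.000928) in MDA-MB-231 cells.

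Whether the response differed between the lines was tested by the difference of the 2 log2 fold changes. None of the 76 genes passed (0 called by limma, 8 with an unadjusted p under 0.05), and 1.24% of all rows were called with a higher and 1.3% with a lower value in MDA-MB-231 cells. Among the rows with a mean above 8 these shares were 1.43% and 2.58%. For this difference 4012 of all 31325 rows and 1451 of the 6853 rows with a mean above 8 had an unadjusted p under 0.05 (limma). The log2 fold change was larger in MDA-MB-231 cells for 54 of 76, compared with 3637 of the 6853 rows with a mean above 8. MRPS35 came nearest, with a difference of 0.41 ± 0.09 (adjusted p = 0.0575), and it passed with rows of low mean left out (adjusted p = 0.0444) or without MDA-MB-231 miR-365a-3p replicate 3 (0.45, adjusted p = 0.0426). MRPL48 followed with 0.56 ± 0.14 (adjusted p = 0.101), and passed without MDA-MB-231 control replicate 2 (0.67, adjusted p = 0.0263). Thus the 24 genes called higher in MDA-MB-231 cells but not in SKOV3 cells are not shown to respond differently. Across the 76 genes, the log2 fold changes in both lines were correlated with r = 0.87 (Pearson) and rho = 0.80 (Spearman), compared with 0.86 and 0.88 over the 6853 rows with a mean above 8. The genes share their arrays and are not independent replicates.

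The control groups were compared to ask how the lines differ without miR-365a-3p. Of the 76 genes, 10 were higher in MDA-MB-231 controls and 12 in SKOV3 controls, compared with 7.76% and 8.34% of all rows. Of the 6853 rows with a mean above 8, 1374 and 1316 were called, which are larger shares than those of the 76 genes. The 76 genes thus differed between the controls less often than rows of such signal, although more often than all rows, most of which lie near the floor. The total of 22 was 14 without SKOV3 control replicate 2. MRPL52, a large-subunit protein found only in mitochondria, read 9.71, 10.06 and 9.67 in MDA-MB-231 controls and 8.41 and 8.33 in SKOV3 controls, well apart, with a log2 difference of 1.44 ± 0.14 (adjusted p = 0.000142). It responded to miR-365a-3p in neither line at the threshold, with log2 fold changes of −0.16 ± 0.12 (adjusted p = 0.456) and 0.25 ± 0.14 (adjusted p = 0.347). The differences of MRPL1 (0.87 ± 0.20, adjusted p = 0.017), MRPS22 (0.85 ± 0.10, adjusted p = 0.000435), MRPL46 (0.82 ± 0.16, adjusted p = 0.00639) and MRPS17, an rRNA-binding protein, (0.78 ± 0.20, adjusted p = 0.0292) followed. Without SKOV3 control replicate 2 the adjusted p of MRPL1 was 0.171, of MRPL46 0.0695 and of MRPS17 0.205, and MRPS17 was lost also without SKOV3 control replicate 1 or MDA-MB-231 control replicates 1 or 2 (adjusted p between 0.0821 and 0.0954), as was MRPL1 without MDA-MB-231 control replicate 2 (adjusted p = 0.0524). On the deposited values neither was called, with 0.73 (adjusted p = 0.0597) for MRPL1 and 0.66 (adjusted p = 0.064) for MRPS17, and the same held after median centring (adjusted p = 0.0535 and 0.0605) and cyclic loess (adjusted p = 0.0523 and 0.0583).

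MRPS6, a small-subunit protein with a counterpart in bacteria, read 10.64, 11.01 and 10.55 in MDA-MB-231 controls and 12.18 and 12.07 in SKOV3 controls. It was higher in SKOV3 cells, with a log2 difference of −1.39 ± 0.14 (adjusted p = 0.000156), and with miR-365a-3p it differed by −0.24 ± 0.12 (adjusted p = 0.204) and −0.29 ± 0.14 (adjusted p = 0.228). MRPS15, which binds the rRNA of the small subunit, differed between the controls by −1.32 ± 0.17 (adjusted p = 0.000753). MRPL33 (−1.04 ± 0.15, adjusted p = 0.00157) and MRPL20 (−0.91 ± 0.15, adjusted p = 0.00308), both with counterparts in bacteria, and MRPS35 (−0.86 ± 0.07, adjusted p = 4.38e-05) were also higher in SKOV3 controls. These genes differ from MRPL52 and MRPS6 in that they rose in MDA-MB-231 cells after miR-365a-3p, MRPS15 by 0.58 ± 0.15 (adjusted p = 0.0211), MRPL33 by 0.80 ± 0.14 (adjusted p = 0.00256) and MRPL20 by 0.82 ± 0.13 (adjusted p = 0.00203). The rise of MRPS15 was lost without MDA-MB-231 miR-365a-3p replicate 1 (0.46, adjusted p = 0.0763) or control replicate 3 (0.46, adjusted p = 0.0713), on the deposited values (0.44, adjusted p = 0.0901), after median centring (0.47, adjusted p = 0.0673) and after cyclic loess (0.46, adjusted p = 0.0881). MRPL20 also rose in SKOV3 cells, by 0.60 ± 0.15 (adjusted p = 0.0288). That call was lost on the deposited values (0.51, adjusted p = 0.0626) and with same-numbered arrays of a line fitted as blocks (0.59, adjusted p = 0.173).

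**Figure D5:**
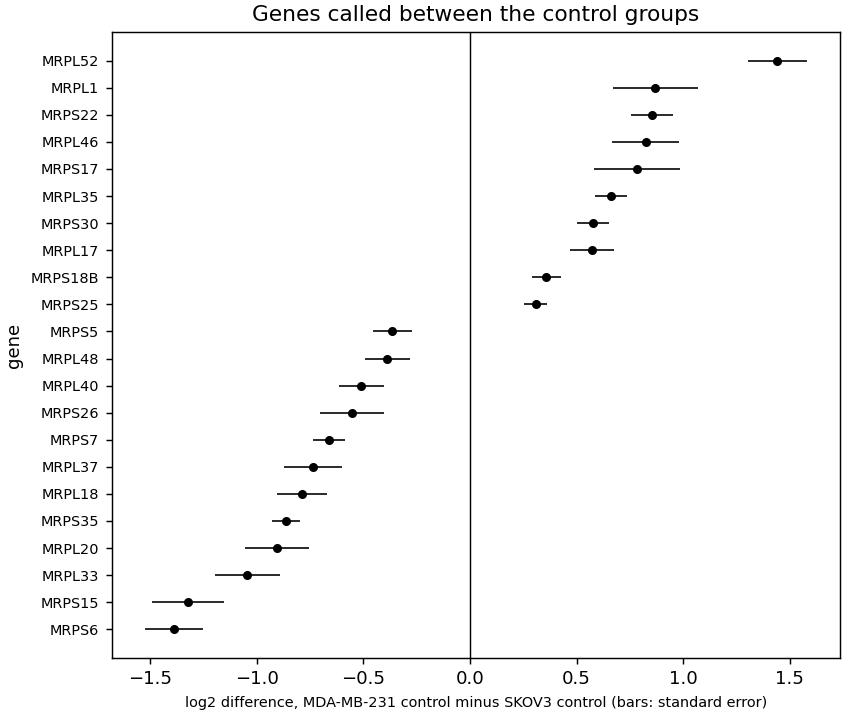
Log2 difference between the MDA-MB-231 and SKOV3 control groups (MDA-MB-231 minus SKOV3) for the 22 mitochondrial ribosomal protein genes with an adjusted p under 0.05, with standard errors as bars. MRPL52 (1.44) lies at the MDA-MB-231 end and MRPS6 (−1.39) at the SKOV3 end.

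Of the mitochondrial ribosomal proteins with other symbols, 4 of 7 rose and 1 fell in MDA-MB-231, and 1 (14.3%) rose and 1 (14.3%) fell in SKOV3 cells. Among the rows with a mean above 8, 39.0% rose and 26.2% fell in MDA-MB-231, and 23.4% and 15.3% in SKOV3 cells. The 7 genes were not filtered by signal. ICT1, a peptidyl-tRNA hydrolase built into the large subunit, rose by 1.00 ± 0.16 (adjusted p = 0.00182) and 0.84 ± 0.18 (adjusted p = 0.0141), the SKOV3 call being lost on the deposited values (0.68, adjusted p = 0.0508) and when either SKOV3 control array was left out. GADD45GIP1 in the large subunit, and CHCHD1 and AURKAIP1 in the small subunit, rose in MDA-MB-231 cells by 0.87 ± 0.18 (adjusted p = 0.00626), 0.74 ± 0.20 (adjusted p = 0.0241) and 0.42 ± 0.11 (adjusted p = 0.0201). The call of CHCHD1 was lost on the deposited values (0.43, adjusted p = 0.159), after median centring (0.46, adjusted p = 0.115) and in 2 of 11 fits without 1 array, and that of AURKAIP1 after cyclic loess (0.31, adjusted p = 0.0555) and in 4 of 11. DAP3, the GTP-binding protein of the small subunit, differed by −0.0035 ± 0.13 (adjusted p = 0.993) and 0.14 ± 0.14 (adjusted p = 0.698). PTCD3, a small-subunit protein with pentatricopeptide repeats like MRPS27, lay at the floor with control means of 7.48 and 7.36, and fell by 0.18 ± 0.04 (adjusted p = 0.0124) in MDA-MB-231 cells. MRP63, a large-subunit protein, fell in SKOV3 cells by 0.39 ± 0.11 (adjusted p = 0.0494), a call lost in 9 of 11 fits without 1 array.

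Other genes of mitochondrial gene expression changed in both directions. The counts that follow stand beside the rows with a mean above 8, of which 39.0% rose and 26.2% fell in MDA-MB-231, and 23.4% and 15.3% in SKOV3. Unlike those rows, the lists were not filtered by signal and hold genes near the floor, such as MTERFD2, TIMM50 and QRSL1. The sets are therefore not alike. Of 24 assembly factors, 11 (45.8%) rose and 2 fell in MDA-MB-231 and 11 rose and 1 fell in SKOV3 cells, with medians of 0.17 and 0.16. MTERFD1 rose by 1.05 ± 0.15 and 0.95 ± 0.17, and the RNA helicase DDX28 by 0.89 ± 0.12 and 0.70 ± 0.13, with adjusted p up to 0.00902. The SKOV3 calls of both were lost with SKOV3 fitted alone (adjusted p = 0.0583 and 0.0688) and without SKOV3 control replicate 2, and that of DDX28 also without control replicate 1. ERAL1, the GTPase that chaperones the small-subunit rRNA, fell by 1.02 ± 0.12 (adjusted p = 0.00035) and 0.58 ± 0.13 (adjusted p = 0.0193), the latter not called without SKOV3 control replicate 1 (log2 fold change −0.44, adjusted p = 0.173) or with SKOV3 fitted alone (adjusted p = 0.104), and the helicase DHX30 fell in MDA-MB-231 cells by 0.43 ± 0.05 (adjusted p = 0.000378). Of 16 translation factors and activators, 9 rose and 2 fell in MDA-MB-231 and 5 rose and 1 fell in SKOV3 cells, with medians of 0.34 and 0.30. The initiation factor MTIF2 rose by 1.00 ± 0.10 (adjusted p = 0.000202) and 0.79 ± 0.11 (adjusted p = 0.00242), and MTIF3 rose in MDA-MB-231 cells by 1.03 ± 0.17 (adjusted p = 0.0024). OXA1L, the insertase that receives the nascent proteins at the inner membrane, fell by 1.31 ± 0.19 (adjusted p = 0.00113) and 0.78 ± 0.21 (adjusted p = 0.0407), the SKOV3 call being lost in 7 of 11 fits without 1 array and with SKOV3 fitted alone (adjusted p = 0.0578).

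Of 15 genes of mitochondrial DNA maintenance and transcription, 6 (40.0%) rose and 5 (33.3%) fell in MDA-MB-231 and 3 rose and 3 fell in SKOV3 cells. These shares lay near those of the rows with a mean above 8, although the list was not filtered by signal. TFAM, which packs mitochondrial DNA and starts its transcription, rose by 1.18 ± 0.11 (adjusted p = 0.000131) and 1.11 ± 0.12 (adjusted p = 0.000679). PNPT1, an RNA-degrading enzyme of mitochondria, fell by 1.34 ± 0.23 (adjusted p = 0.00271) and 1.68 ± 0.26 (adjusted p = 0.00313). Of 20 mitochondrial aminoacyl-tRNA synthetases, 7 rose and 3 fell in MDA-MB-231 and 6 rose and 2 fell in SKOV3 cells, with RARS2 higher by 1.01 ± 0.15 (adjusted p = 0.00123) and IARS2 lower by 1.66 ± 0.30 (log2 fold change −1.66, adjusted p = 0.0036) in MDA-MB-231 cells. Of 27 genes of protein import, 14 rose and 4 fell in MDA-MB-231 and 9 rose and 0 fell in SKOV3 cells (limma, 16 of 27 with an unadjusted p under 0.05), with medians of 0.40 and 0.31. The unadjusted count lay near the share of the rows with a mean above 8, of which 4069 of 6853 had such a p in SKOV3 cells. TIMM8A, a carrier chaperone of the intermembrane space, rose by 1.13 ± 0.15 (adjusted p = 0.000652) and 0.80 ± 0.16 (adjusted p = 0.0125), the latter not called when either SKOV3 control array was left out, whereas the receptor TOMM20 fell by 2.19 ± 0.30 (adjusted p = 0.000831) in MDA-MB-231 cells.

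Of 10 regulators of mitochondrial biogenesis, 1 rose and 3 fell in MDA-MB-231 and 1 rose and 2 fell in SKOV3 cells. The gene that rose in both was GABPB1, which lay near the floor, with log2 fold changes of 0.22 and 0.26. Its calls were lost on the deposited values in both lines, and in 7 and 8 of 11 fits without 1 array. MYC, a transcription factor that activates ribosome and mitochondrial genes, fell by 1.44 ± 0.12 (adjusted p = 7.81e-05) and 0.64 ± 0.14 (adjusted p = 0.0145), and the coactivator PPRC1 by 1.14 ± 0.10 (adjusted p = 7.58e-05) and 0.42 ± 0.11 (adjusted p = 0.0317). Both SKOV3 calls were lost when either SKOV3 control array was left out. The SKOV3 means of PPRC1 lay near the floor, at 7.82 and 7.39. GABPA and NRF1, the factors of the motifs searched above, lay at the floor with control means of 7.50 and 7.37 in MDA-MB-231 cells, where changes cannot be measured well.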

How the data were processed

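Per the methods, the authors quantile normalized HumanHT-12 BeadChip data with lumi, and the deposited table holds 1 log2 value per gene symbol and array, 31325 rows and 11 arrays. Whether the transformation was log2 or variance-stabilizing, how probes were combined and whether background was subtracted are not given in the sources used here, so fold changes carry this limit. The number of arrays limits the precision, and the arrays give no read depth.

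Samples were grouped by the labels. The deposited values were quantile normalized across arrays, since their distributions differed, and 4 group means were fitted to every row with limma 3.58.1 (lmFit, eBayes) in R 4.3.3. All p-values are two-sided and were adjusted by Benjamini-Hochberg over all rows, with a threshold of 0.05. The fit was tested on simulated data. SDs are over arrays, SEs are of the fit, and no level of a gene was compared with that of another.

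The members and gene lists were chosen with earlier results of these data known. The lists hold 120 genes in 7 groups, of which 119 were matched. Subunit classes were written after values were seen. Of the 76 symbols, 75 were current and 1 was older in RefSeq. Named were the 8 largest rises and all falls among called members, the 5 largest control differences each way, members with known roles, mitoribosomal proteins with other symbols, and the 2 largest called rises and falls of the other lists, of which not all are printed. MRPL18, MRPL27, MRPL40, MRPL48, MRPS36 and MRPL42P5 were named after their values were seen. The part of the rule on the highest and lowest control levels was not used, since levels of different probes are not comparable. Protein lengths were not analysed here. Promoters are the first listed per gene.

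The alternatives were deposited values, median centring, cyclic loess, rows above the median mean, each line alone, replicate blocks, an intensity trend with robust hyperparameters, an adjusted p under 0.01, and each array left out in turn.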

Additional observations from a re-analysis of the deposited data

How the results depend on the processing

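In no alternative fit did a gene called higher after miR-365a-3p change its sign. Of the 60 rises in MDA-MB-231 45 stayed past the threshold in every alternative fit, and of the 37 in SKOV3 cells 16 did. MRPS2 was the 1 fall of 3 that did so in MDA-MB-231, and 0 of 1 did in SKOV3. At an adjusted p under 0.01, 23 genes were higher in SKOV3 cells, 23 in both lines, and 0 lower in SKOV3 cells. The number lower in SKOV3 cells was 2 on the deposited values, after median centring, with rows of low mean left out, with each cell line fitted alone, and with an intensity trend and robust hyperparameters. The number called for the difference between lines was 1 with rows of low mean left out. The median log2 fold change in MDA-MB-231 cells was 0.59 on the deposited values, and in SKOV3 cells it was 0.46 on the deposited values and 0.50 after median centring.

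With 1 array left out at a time, the rises numbered 50 to 64 in MDA-MB-231 cells, 16 to 48 in SKOV3 cells and 16 to 47 in both. Without SKOV3 control replicate 1 or 2 there were 21 and 16 in SKOV3 cells and in both. The falls numbered 2 to 3 and 0 to 2, calls for the difference between lines 0 to 1, and calls between the controls 14 to 28, with 14 without SKOV3 control replicate 2. The medians ranged from 0.68 to 0.84 in MDA-MB-231 and from 0.50 to 0.69 in SKOV3 cells.

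With a replicate block within each cell line, 55 genes rose and 2 fell in MDA-MB-231 and 30 rose and 1 fell in SKOV3 cells. With it MRPS27 had an adjusted p of 0.0536 in MDA-MB-231. Deviations of same-numbered treated and control arrays from their group means correlated at −0.12, 0.04 and 0.23 in MDA-MB-231 cells over 6853 genes. In SKOV3 cells these correlations were 0.04 and −0.07. Not every array correlated best with its own number. The deviations of a group cancel each other, so with 2 or 3 arrays these correlations cannot decide whether same-numbered arrays belong together. Treated arrays of the 2 lines with the same number correlated at 0.70, 0.31 and 0.34, and a block shared by the lines, added after the data were seen, gave 57 and 3 in MDA-MB-231 and 39 and 1 in SKOV3 cells.

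In each line, signs turned only for genes that were not called in that line. The values that follow are of named genes, and other members turned as well. On the deposited values 64 genes had a positive difference in SKOV3 cells, compared with 69 after quantile normalization. In SKOV3 cells MRPL44 had −0.17 on the deposited values and −0.13 after median centring, MRPL52 −0.030 on the deposited values, MRPS34 −0.054 and −0.016, and MRPS25 0.0096 with the replicate block. With 1 array left out, MRPS16 ranged in SKOV3 from −0.25 to 0.028 (without control replicate 2) and MRPS25 from −0.092 to 0.0096 (without miR-365a-3p replicate 3). In MDA-MB-231 cells MRPS18B had −0.12 and −0.083, and MRPS5 −0.050 and −0.018, on the deposited values and after median centring. The cause was not tested. Changes of genes near the floor are understated, and no detection values were used.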

Other observations

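The proteins of the cytosolic ribosome offer a comparison of the same kind. The 80 rows with a cytosolic ribosomal protein symbol and a mean above 8, a pattern of symbols chosen after values were seen, had median log2 fold changes of 0.27 in MDA-MB-231 and 0.22 in SKOV3 cells, with 29 (36.3%) higher and 3 lower in the former and 17 (21.3%) higher and 2 lower in the latter. The shares of higher calls lay near those of all rows with a mean above 8, which were 39.0% and 23.4%. The shares of lower calls, 3.75% and 2.5%, were smaller than the 26.2% and 15.3% of those rows. A positive difference was found for 67 of 80 in MDA-MB-231 and 64 of 80 in SKOV3 cells, compared with 3945 and 4193 of the 6853 rows with a mean above 8.

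The row MRPL42P5, a pseudogene of MRPL42 that is no member of the family, lay near the floor with a control mean of 7.56 in MDA-MB-231 and rose by 0.30 ± 0.05 (adjusted p = 0.00326), and in SKOV3 cells by 0.22 ± 0.06 (adjusted p = 0.0445). RefSeq names 106 pseudogenes after MRPL and MRPS genes, and probe sequences were not used here, so the share of signal from such copies was not tested.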
